A study of Mus musculus with 5 samples.

Results

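The genes described here are 10 core members of the cell cycle arrest and p53 system, the Cip/Kip inhibitors Cdkn1a, Cdkn1b and Cdkn1c, the INK4 inhibitors Cdkn2a, Cdkn2b, Cdkn2c and Cdkn2d, and Trp53 with Mdm2 and Ccng1. They were picked by symbol, and 10 of 10 were found among the 17818 gene symbols measured by messenger RNA sequencing of mouse hearts. All animals were male and had undergone bone marrow transplantation, a model of clonal hematopoiesis in which blood cells with a mutation expand in the recipient. The groups were WT given vector (1 library), Tet2+/- given vector (2 libraries) and Tet2+/- given Oridonin, a plant diterpenoid (2 libraries). Tissue was collected 12 months after transplantation, and treatment with vector or Oridonin lasted 2 months. Tet2 codes for a dioxygenase acting on methylated cytosine in DNA. The labels state genotype per animal without saying whether it is that of donor, host or both, and they give no strain, age, conditioning or share of donor cells in the blood. Titles carry 1 month or 2 month, whereas the time label is 2 months throughout, so the number in a title serves here only as a replicate number.

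Cyclin-dependent kinases drive a cell through its division cycle when bound to cyclins. Cip/Kip proteins bind kinase and cyclin together, while INK4 proteins bind CDK4 and CDK6 and keep cyclin D away, so that the RB protein stays active and E2F target genes stay off. The transcription factor p53 is held low by the ubiquitin ligase MDM2 and, after DNA damage, switches on Cdkn1a, Mdm2 and Ccng1 among other genes. In ageing tissue, Cdkn1a (p21) and Cdkn2a (p16 and ARF) are the most used transcript markers of cellular senescence. Adult heart muscle cells seldom divide, and Cdkn1a is also switched on by steroid hormones and stress signals that do not need p53.

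RefSeq start sites (build GRCm38.p6) were found for 9 of the 10 genes, with 12 start sites in all, and the 250 bases before each were searched for the 10-base p53 half-site consensus, which reads the same on both strands. A half-site was present in 5 of these 12 windows, 1 each of Cdkn1a, Cdkn2d, Trp53, Mdm2 and Ccng1, against 7.13% of 32851 windows of the same length over all genes. Cdkn1a, Mdm2 and Ccng1 were already known as p53 targets. A complete 20-base site, made of a pair of half-sites with no gap and at most 1 base off the consensus, stood before Cdkn1a and Ccng1 and in 0.0761% of all windows. The allowance of 1 base was chosen after the sequences had been seen. A match is a description of the letters and not evidence of binding. The windows of Cdkn1a are shown because its level differed most between WT and Tet2 hearts among the 8 genes with enough counts to be tested, and those of Ccng1 and Mdm2 for comparison, as other p53 targets. Both Cdkn1a starts are given, 2790 bases apart on the plus strand of chromosome 17. Capitals mark half-sites and complete sites, and each line runs 5′ to 3′ up to the base before the start.
Cdkn1a upstream start, chr17:29090729-29090978, plus strand: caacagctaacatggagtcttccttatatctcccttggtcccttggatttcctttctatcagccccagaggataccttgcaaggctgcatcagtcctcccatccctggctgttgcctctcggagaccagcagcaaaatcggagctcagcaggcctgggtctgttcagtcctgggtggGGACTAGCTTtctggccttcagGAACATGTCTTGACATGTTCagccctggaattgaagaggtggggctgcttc
Cdkn1a downstream start, chr17:29093519-29093768, plus strand: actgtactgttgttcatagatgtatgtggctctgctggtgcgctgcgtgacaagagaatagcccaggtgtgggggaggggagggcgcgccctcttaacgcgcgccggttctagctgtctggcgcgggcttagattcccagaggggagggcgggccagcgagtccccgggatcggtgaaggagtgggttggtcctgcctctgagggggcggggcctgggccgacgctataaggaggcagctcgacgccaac
Ccng1, chr11:40755287-40755536, minus strand: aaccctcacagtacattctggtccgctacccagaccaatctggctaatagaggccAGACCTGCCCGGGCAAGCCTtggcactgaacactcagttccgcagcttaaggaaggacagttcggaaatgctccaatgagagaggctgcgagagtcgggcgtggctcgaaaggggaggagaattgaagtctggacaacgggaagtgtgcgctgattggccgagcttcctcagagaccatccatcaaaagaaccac
Mdm2, chr10:117710759-117711008, minus strand: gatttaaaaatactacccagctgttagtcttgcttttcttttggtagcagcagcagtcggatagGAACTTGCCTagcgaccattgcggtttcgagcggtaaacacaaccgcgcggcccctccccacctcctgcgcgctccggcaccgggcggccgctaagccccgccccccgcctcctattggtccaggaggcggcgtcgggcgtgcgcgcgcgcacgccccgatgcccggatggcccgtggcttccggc
In the first of these lines the complete site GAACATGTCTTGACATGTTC began 51 bases before the upstream start of Cdkn1a, behind a further half-site at 73 bases. The downstream start had no half-site in its window and held the GC box GGGCGG or its complement CCGCCC, found in 32.7% of all windows. The site of Ccng1 began 195 bases before its start, and the single half-site of Mdm2, GAACTTGCCT, 186 bases before the start shown. Gene-level counts do not say which start a transcript used.

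Library totals ran from 14574823 to 15535778 counts, so that a floor of 3 counts is 0.193 to 0.206 CPM (counts scaled to a common library size). The 12 heart muscle markers were detected in each of the 5 libraries, with a summed level of 53808 to 66851 CPM. Tet2 vector replicate 1 stood apart, because its atrial markers summed to 1198 CPM against 83.1 to 133 CPM in the other 4 libraries, with Myl7 at 176 CPM against at most 0.0686 CPM and Sln at 66.6 CPM against at most 0.0686 CPM. It also had the most signal of fat cell genes (21.4 CPM against 0.410 to 7.20 CPM) and macrophage genes (721 CPM against 405 to 472 CPM). Results that rest on this library are given with and without it, and the part of its tissue content in them was not tested. In these bulk samples, fewer cells of a type and less RNA per cell cannot be told apart.

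Cdkn1a, which encodes p21, had the largest difference from WT among the 8 genes that passed the filter of 1 CPM in 2 libraries. WT had 40.9 CPM, the Tet2 vector replicates had 14.7 and 16.9 CPM, and those given Oridonin had 14.2 and 18.2 CPM. The 4 Tet2 libraries thus lay close together, and each was more than 2-fold below WT. WT was above all 4 in 27.2% of the 12734 genes tested, and above all 4 by at least 2-fold in 0.353%. A group difference of at least 2-fold below WT was found in 2.63% of genes for Tet2 vector and 2.14% for Oridonin, and one as low as that of Cdkn1a in 0.974% and 0.825%. Cdkn1a (ENSMUSG00000023067; chromosome 17, 29090976 to 29100727, GRCm38) shares part of its span with the unnamed transcript model AC167363.2, which is not a row of the table. Against WT, Tet2 vector differed by a log2 fold change of -1.37 (standard error 0.28, 95% interval -2.05 to -0.69), or 2.59-fold lower, with an unadjusted p = 0.00253 and an adjusted p = 0.324 in limma. With Oridonin the log2 difference from WT was -1.35 (standard error 0.28; limma, unadjusted p = 0.00277, adjusted p = 0.583). These comparisons share the single WT library, so the second is no independent repeat of the first. Between Oridonin and vector Cdkn1a differed by a log2 of 0.024, with a 95% interval of -0.53 to 0.58, which allows anything from 0.692 to 1.49 times the vector level.

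**Figure D1:**
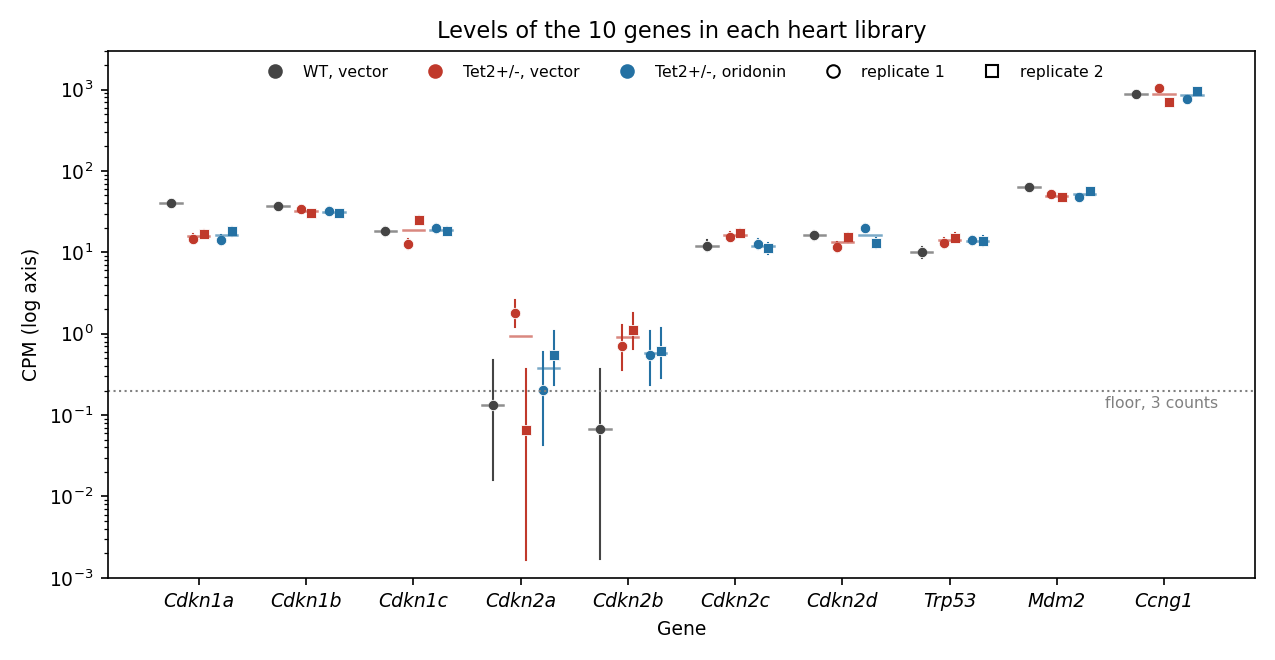
Levels of the 10 genes in CPM on a log axis in each heart library, with circles for replicate 1, squares for replicate 2, short bars for group means and vertical lines for 95% Poisson intervals that cover counting error only. Cdkn1a is at 40.9 CPM in WT and at 14.2 to 18.2 CPM in the 4 Tet2 libraries, while Cdkn2a and Cdkn2b lie around the floor of 3 counts.

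The other Cip/Kip genes differed less from WT, but in Tet2 vector their 95% intervals overlap that of Cdkn1a (-2.05 to -0.69). Cdkn1b (p27; chromosome 6, 134920401 to 134925513), the inhibitor that holds quiescent cells out of the cycle, was the steadiest of the 10, at 37.3 CPM in WT, 34.1 and 30.6 CPM in Tet2 vector and 32.6 and 30.4 CPM in Oridonin libraries. Its WT value was the highest of the 5, yet the ratio of highest to lowest was only 1.23. The log2 difference of Tet2 vector from WT was -0.21 (95% interval -0.77 to 0.36; limma, adjusted p = 0.803). Cdkn1c (p57; chromosome 7, 143458339 to 143461050), an imprinted growth inhibitor, was at 18.1 CPM in WT, 12.6 and 25.2 CPM in Tet2 vector and 19.7 and 18.4 CPM in Oridonin libraries. The WT and Oridonin values lay between the Tet2 vector replicates, which differed by 1.00 on the log2 scale. With both replicates the log2 difference of Tet2 vector from WT was -0.028 for Cdkn1c (95% interval -1.07 to 1.02). Without replicate 1 this difference was 0.47, and without replicate 2 it was -0.53. The gene model Gm44732 overlaps Cdkn1c and is not a row of the table. Without strand information its reads could not be told from those of Cdkn1c.

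The INK4 genes split by level. Cdkn2a (chromosome 4, 89274471 to 89294653) and Cdkn2b (89306299 to 89311039) are neighbours 11645 bases apart and did not pass the filter of 1 CPM in 2 libraries, so they were counted but not tested. Cdkn2a, whose reads cover both p16 and ARF, had 2 counts in the WT library. It had 28 and 1 counts in the Tet2 vector replicates, against 3 and 8 counts with Oridonin. The Tet2 vector replicates stood on either side of all the others, with 95% Poisson intervals of 18.6 to 40.5 and 0.0253 to 5.57 counts that do not overlap. The high library is the one with atrial markers. Replicate 1 over WT gave a ratio of 13.5 (exact 95% interval 3.41 to 117, counting error only) and replicate 2 over WT a ratio of 0.489 (0.00829 to 9.40), so the ratio of both pooled, 7.05, rested on 1 library. The pooled ratio of Oridonin to vector, 0.401 (0.181 to 0.827), rested on the same library.

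Cdkn2b (p15), which TGF-beta is known to switch on, had 1 count in the WT library. It had 11 and 17 counts in the Tet2 vector replicates, against 8 and 9 counts with Oridonin. Here all 4 Tet2 libraries were above WT, and the replicates of each group were alike. WT was below all 4 in 24.2% of the genes tested, and no such share was computed for genes under the filter. The pooled ratio to WT was 13.6 (exact 95% interval 2.25 to 556) for Tet2 vector and 8.73 (1.37 to 365) for Oridonin, with counting error only and a single WT library. By single libraries the ratios to WT ran from 8.21 to 16.6. Oridonin over vector gave 0.642 (0.330 to 1.21), an interval that includes 1.

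Cdkn2c (p18; chromosome 4, 109660876 to 109667189) was at 12.1 CPM in WT, 15.5 and 17.3 CPM in Tet2 vector and 12.7 and 11.3 CPM in Oridonin libraries. It was the gene of the 8 tested whose Oridonin and vector values did not overlap, with both Oridonin libraries lower and on either side of WT. Over all genes tested, Oridonin lay below vector without overlap in 17.8%, above it in 8.37%, and in either direction in 26.1%. For Cdkn2c the log2 fold change of Oridonin over vector was -0.45 (standard error 0.22, 95% interval -0.99 to 0.08; limma, unadjusted p = 0.0832, adjusted p = 1.00). Tet2 vector over WT gave a log2 of 0.43 (limma, adjusted p = 0.638), a comparison that shares the vector libraries with the one before it. Fibroblast markers were also lower with Oridonin than with vector, 10 of 10 at an unadjusted p under 0.05 in limma, against 1.93% of all genes. In Tet2 vector 8 of the 10 were higher than in WT (median log2 0.80). Their summed level, to which Gsn gave the largest part, was 2975 CPM in WT, 3307 and 3429 CPM in Tet2 vector and 2052 and 1908 CPM in Oridonin libraries. Macrophage markers were lower with Oridonin than with vector in 9 of 10, with 1 at that level. The part of either set in the level of Cdkn2c was not tested. Cdkn2d (p19; chromosome 9, 21288410 to 21291407) was at 16.3 CPM in WT, 11.7 and 15.3 CPM in Tet2 vector and 19.8 and 13.0 CPM in Oridonin libraries. The Oridonin replicates differed by 0.61 on the log2 scale, more than the group difference of 0.26 (limma, adjusted p = 1.00).

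In the p53 branch, Trp53 itself (chromosome 11, 69580359 to 69591873) was at 9.99 CPM in WT, 12.9 and 15.2 CPM in Tet2 vector and 14.0 and 13.9 CPM in Oridonin libraries. WT was the lowest of the 5, as in 24.2% of all genes tested. The log2 difference was 0.49 for Tet2 vector (95% interval -0.17 to 1.15; limma, adjusted p = 0.607) and 0.48 for Oridonin (-0.18 to 1.14; limma, adjusted p = 0.822), both against the same WT library. The p53 protein is controlled mainly by its turnover, which a transcript level does not show. Mdm2 (chromosome 10, 117688875 to 117710758), the ligase and p53 target, was at 64.0 CPM in WT, 52.2 and 47.2 CPM in Tet2 vector and 47.7 and 56.1 CPM in Oridonin libraries. WT was the highest, and Tet2 vector differed from it by a log2 of -0.37 (95% interval -0.92 to 0.19; limma, adjusted p = 0.640). Ccng1 (cyclin G1; chromosome 11, 40748552 to 40755311), a p53 target that acts on MDM2 through the phosphatase PP2A, was at 874 CPM in WT, 1056 and 711 CPM in Tet2 vector and 758 and 954 CPM in Oridonin libraries. WT lay inside the range of each Tet2 group, and the log2 difference of Tet2 vector was -0.013 (95% interval -0.71 to 0.69). Of the p53 targets among the 10, Cdkn1a was the one at least 2-fold below WT, and the intervals of Mdm2 and Ccng1 against WT include no difference. In Tet2 vector these intervals also overlap that of Cdkn1a (-2.05 to -0.69), and a difference between the targets was not tested.

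Counted over the 8 tested genes, limma called 0 at a false discovery rate (FDR) of 0.05 in each of the 3 comparisons, and it called 0% of all 12734 genes in each. At the same FDR voom likewise called 0 genes in each. At an unadjusted p under 0.05 the limma fit held 1221 genes for Tet2 vector against WT, 331 for Oridonin against vector and 791 for Oridonin against WT. At that level 1 of the 8 was lower in Tet2 vector than in WT, Cdkn1a, against 4.53% of all genes, and 0 of the 8 were higher, against 5.06%. In Oridonin against vector 0 of the 8 passed it, against 0.668% of all genes higher and 1.93% lower. In Oridonin against WT, Cdkn1a was again the 1 that was lower, against 3.53% of all genes, and 0 were higher, against 2.69%. The WT value lay outside both Tet2 vector values for 6 of the 8, 2 higher and 4 lower in Tet2, where the shares over all genes were 67.7%, 35.4% and 32.3%. It lay outside both Oridonin values for 5 of the 8, 2 higher and 3 lower, where they were 73.6%, 31.9% and 41.7%. Neither count stands apart from its background. The median log2 difference of the 8 was -0.12 for Tet2 vector against WT, beside 0.0050 over all genes tested, and 0.0095 for Oridonin against vector, beside -0.052. The split of the 8 depended on the scaling, at 2 higher and 6 lower in Tet2 vector than in WT on library totals and 4 and 4 on totals without mitochondrial genes. Against WT, Oridonin had 2 higher and 6 lower on library totals and 5 and 3 with each other scaling tried. Against vector it had 4 and 4, and 7 and 1 with median-of-ratios scaling.

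**Figure D2:**
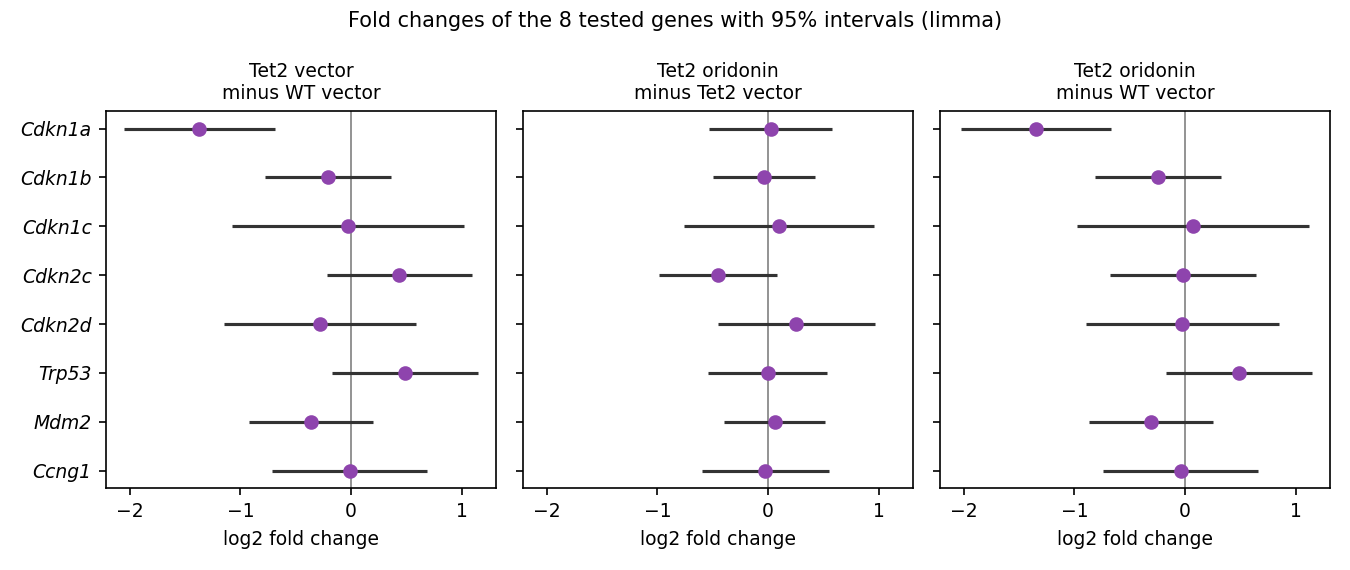
Log2 fold changes of the 8 tested genes (points) with 95% intervals from limma (lines) in the 3 comparisons. The interval of Cdkn1a lies below 0 in both comparisons with WT, at -2.05 to -0.69 and -2.03 to -0.67, and all others include 0.

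Levels of different genes were compared per kilobase of annotated exon. Ccng1 led with a median of 249 CPM per kb over the 5 libraries (202 to 301). Mdm2 (median 10.3), Cdkn2d (9.74), Cdkn1c (9.02), Cdkn1b (7.16), Cdkn1a (4.75) and Cdkn2c (4.73 CPM per kb) followed, each with a range that overlapped that of its neighbour in this order. Trp53 came next at 3.44 CPM per kb (2.47 to 3.76), below the whole range of Cdkn2c (4.19 to 6.46). Cdkn2b (0.444) and Cdkn2a (0.175 CPM per kb) were lowest, with overlapping ranges. The place of Cdkn1a depended on the library, since its 11.5 CPM per kb in WT exceeded the medians of all but Ccng1.

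A wider list of 40 further p53 targets showed no common direction. Of 37 tested, 16 were higher and 21 lower in Tet2 vector than in WT, with a median log2 of -0.15 beside 0.0050 over all genes, and 0 passed the FDR in limma. At an unadjusted p under 0.05 there were 1 higher and 3 lower. Sesn1, a stress-induced regulator of mTORC1 and a FOXO target as well, was at 225 CPM in WT, 132 and 115 CPM in Tet2 vector and 101 and 117 CPM in Oridonin libraries. Steap3, a metalloreductase, went the other way, at 35.1 CPM in WT, 71.4 and 59.9 CPM in Tet2 vector and 46.4 and 42.3 CPM with Oridonin. With Oridonin against vector 14 were higher and 23 lower (median log2 -0.045, beside -0.052 over all genes; 19 and 18 with median-of-ratios scaling), with 1 lower at an unadjusted p under 0.05, Steap3. Phlda3, an inhibitor of AKT signalling, was at 9.69 CPM in WT, 8.05 and 6.65 CPM in Tet2 vector and 10.4 and 11.9 CPM with Oridonin. Its Oridonin values lay above vector without overlap, as in 8.37% of all genes tested. It did not pass the FDR in that comparison (limma, unadjusted p = 0.0502). Against WT, 14 were higher and 23 lower with Oridonin, and on totals without mitochondrial genes 19 and 18. Ddit4, an inhibitor of mTORC1 that glucocorticoids also induce, was at 81.7 CPM in WT and 18.9 to 35.9 CPM in the Tet2 libraries. Regulators of p53 had 6 of 20 tested higher and 14 lower in Tet2 vector than in WT (median log2 -0.32), with 0 past the FDR in limma and 0 at an unadjusted p under 0.05. Their smallest p was that of Rpl5, a ribosomal protein that binds MDM2, at a log2 of 0.41 (limma, unadjusted p = 0.0657). Hipk2, a kinase that phosphorylates p53, was at 93.1 CPM in WT, 50.9 and 6.65 CPM in Tet2 vector and 18.9 and 34.6 CPM with Oridonin, so its vector replicates were far apart. Without Tet2 vector replicate 1, 1 regulator was higher and 5 were lower at an unadjusted p under 0.05. Without Tet2 vector replicate 2, 10 of 20 were higher and 10 lower than in WT, with a median log2 of 0.010.

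The partners and targets of the inhibitors lay above WT more often than below it. Of 12 tested cyclins and CDKs, 11 were higher in Tet2 vector (median log2 0.32, beside 0.0050 over all genes), with 0 past the FDR and 2 at an unadjusted p under 0.05. Cdk4, the kinase that INK4 proteins bind, was at 27.7 CPM in WT, 40.3 and 44.7 CPM in Tet2 vector and 39.0 and 32.5 CPM in Oridonin libraries. Ccnh, the cyclin of the CDK-activating kinase, was at 15.1 CPM in WT and 19.9 to 28.1 CPM in the Tet2 libraries. This direction rested on Tet2 vector replicate 1, since without it 6 of 12 were higher and 6 lower, with a median log2 of 0.086. In Oridonin against WT 12 of 12 were higher (median log2 0.38), and 8 of 11 without Oridonin replicate 2. Among them was Ccnd1, cyclin D1, at 24.2 CPM in WT and 33.3 to 86.7 CPM in the Tet2 libraries, with the highest value in Tet2 vector replicate 1. Ccna2 passed the filter of 1 CPM in 2 libraries only through the Oridonin libraries (1.03 and 1.17 CPM). It was at 0.400 CPM in WT and 0.708 and 0.261 CPM in Tet2 vector, so its higher level with Oridonin was set by the filter.

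Proliferation markers showed the same direction. All 12 tested of 18 listed were higher in Tet2 vector than in WT (median log2 0.89), with 0 past the FDR and 4 at an unadjusted p under 0.05. WT has 1 library, so markers low in WT passed the filter of 1 CPM in 2 libraries only through Tet2 libraries. Aurka passed only through the Oridonin libraries (1.16 and 1.44 CPM, against 0.467 CPM in WT and 0.515 and 0.587 CPM in Tet2 vector). Top2a (0.133 CPM in WT) passed only through Tet2 vector replicate 1 and Oridonin replicate 2 (2.83 and 2.33 CPM). The splits of this list were thus partly set by the filter. Mcm2 and Mcm6, subunits of the replicative helicase, were at 3.72 and 6.23 CPM in WT. In Tet2 vector Mcm2 was at 7.98 and 7.17 CPM and Mcm6 at 12.7 and 12.4 CPM, and with Oridonin Mcm2 was at 7.18 and 8.44 CPM and Mcm6 at 8.07 and 10.2 CPM. The summed level of the list was 25.3 CPM in WT, 118 and 43.8 CPM in Tet2 vector and 55.9 and 60.4 CPM in Oridonin libraries. Without Tet2 vector replicate 1, 10 of 11 tested were higher, with a median log2 of 0.47, and with quantile normalization 9 of 12 were. With Oridonin 12 of 12 were higher than in WT (median log2 1.04) and 9 of 12 higher than in vector (median log2 0.17), with 4 and 0 at an unadjusted p under 0.05. Without Oridonin replicate 2, 9 of 10 were higher than in WT, with 0 at an unadjusted p under 0.05. For Oridonin against vector, without Tet2 vector replicate 2 the split was 4 higher and 8 lower, and without Oridonin replicate 2 it was 3 and 7. Which cells carry these transcripts was not tested. Macrophage markers had 8 of 10 higher in Tet2 vector than in WT (median log2 0.64), or 7 of 10 without Tet2 vector replicate 1 (median log2 0.41), and their part in the levels of proliferation markers was not tested.

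RB and E2F genes were divided, with 7 of 15 tested higher and 8 lower in Tet2 vector than in WT (median log2 -0.11), 0 past the FDR and 2 lower at an unadjusted p under 0.05. Tfdp2, the DNA-binding partner of E2F proteins, had a profile close to that of Cdkn1a, at 198 CPM in WT, 73.6 and 61.1 CPM in Tet2 vector and 66.4 and 80.5 CPM in Oridonin libraries (log2 -1.56 for Tet2 vector against WT; limma, unadjusted p = 0.000594, adjusted p = 0.293). Rbl2 (p130), the RB relative of resting cells, was at 60.7 CPM in WT and 29.1 to 41.8 CPM in the Tet2 libraries. Among 23 tested regulators of inhibitor turnover and expression, 11 were higher and 12 lower (median log2 -0.077), with 0 past the FDR, 1 higher and 2 lower at an unadjusted p under 0.05. The lower ones were Foxo3 and Foxo4, factors known to switch on Cdkn1a and Cdkn1b. Foxo3 was at 171 CPM in WT, 82.2 and 59.8 CPM in Tet2 vector and 79.5 and 88.9 CPM in Oridonin libraries (log2 -1.29 for Tet2 vector; limma, adjusted p = 0.324). Foxo4 was at 92.5 CPM in WT, 54.0 and 48.3 CPM in Tet2 vector and 54.4 and 53.9 CPM in Oridonin libraries. The 4 Tet2 libraries of both genes lay below WT whatever the treatment, as in 27.2% of all genes tested. The part of Foxo3 and Foxo4 in the level of Cdkn1a was not tested.

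Cdkn1a can be induced by glucocorticoids, and known targets of these hormones were lower in Tet2 vector than in WT for 12 of 15 tested (median log2 -0.49), with 0 past the FDR and 4 lower at an unadjusted p under 0.05. Without Tet2 vector replicate 1, 5 were higher and 10 lower than in WT, with a median log2 of -0.33. Fkbp5, a chaperone of the steroid receptor, was at 77.2 CPM in WT, 26.8 and 21.8 CPM in Tet2 vector and 25.1 and 25.2 CPM with Oridonin. Map3k6, a stress kinase, was at 35.9 CPM in WT and 8.75 to 14.7 CPM in the Tet2 libraries. With Oridonin 14 of 15 were lower than in WT (median log2 -0.66), and against vector 8 were higher and 7 lower, with 1 higher and 4 lower at an unadjusted p under 0.05 and 0 past the FDR in limma. Without Tet2 vector replicate 2 there were 2 lower at that level, without Oridonin replicate 2 there was 1, and without Oridonin replicate 1 there were 4, with 1 of the 15 past the FDR. Errfi1, a feedback inhibitor of the EGF receptor, had the smallest p with all libraries (log2 -0.96; limma, unadjusted p = 0.00564, adjusted p = 1.00), at 48.3 CPM in WT, 33.1 and 31.2 CPM in Tet2 vector and 19.4 and 14.1 CPM with Oridonin. Zbtb16, a hormone-induced transcription factor, was at 122 CPM in WT, 16.0 and 7.56 CPM in Tet2 vector and 24.2 and 45.3 CPM with Oridonin. Circadian genes were split (7 higher and 8 lower in Tet2 vector than in WT), with log2 differences from -1.77 to 1.31. The highest was that of Dbp, an output factor of the clock, at 37.0 CPM in WT and 85.5 to 123 CPM in the Tet2 libraries. Time of day is not given in the labels, and its part in these levels was not tested. The hormone targets, like Cdkn1a, were mostly lower in the Tet2 groups than in WT, and their part in its level was not tested.

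**Figure D3:**
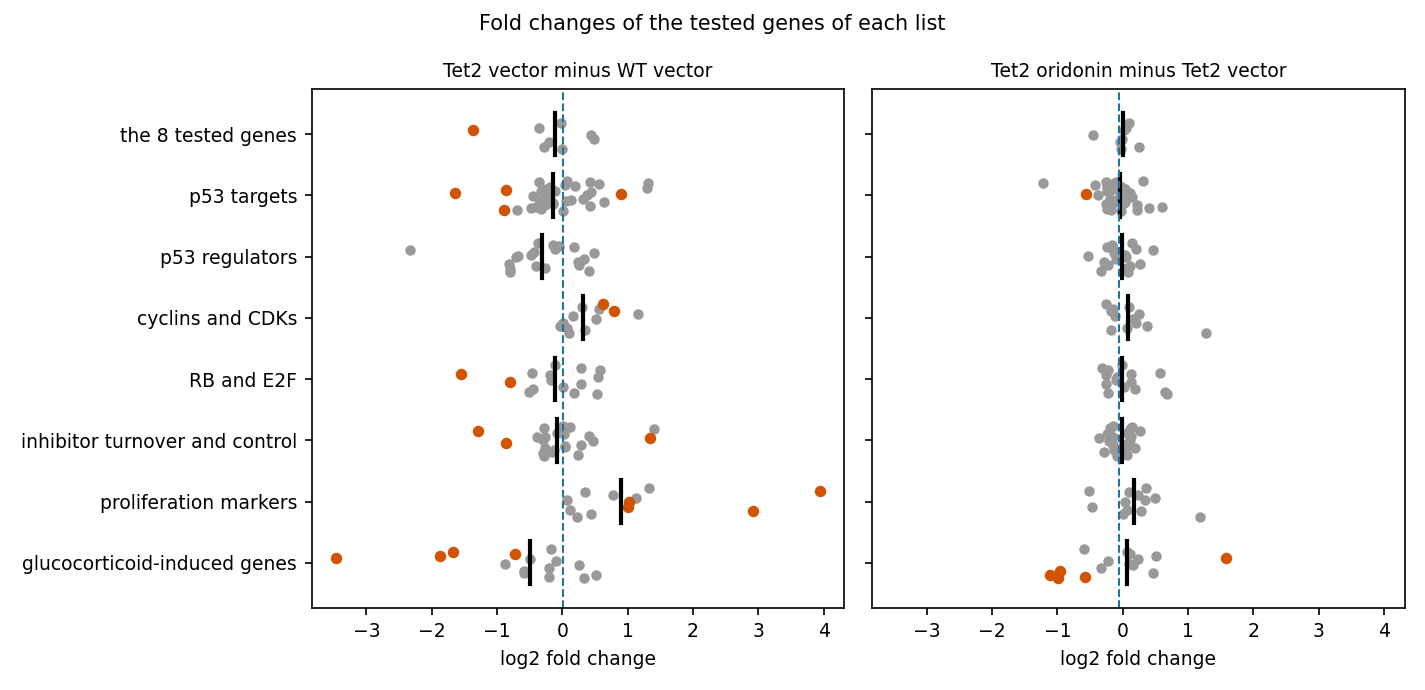
Log2 fold changes of every tested gene of each list in Tet2 vector minus WT (left) and Oridonin minus vector (right), with orange points for an unadjusted p under 0.05, black bars for list medians and a dashed line for the median of all genes tested. On the left, proliferation markers lie above 0 (12 of 12, some past the filter only through Tet2 libraries) and glucocorticoid-induced genes mostly below it (12 of 15). The 8 genes center near 0 on the right.

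The genes most like Cdkn1a were those with the smallest root mean square difference in log2 CPM over the 5 libraries, each gene being centered on its own mean. Closest was Myom2, which codes for an M-band protein of the sarcomere, at 1625 CPM in WT, 615 and 663 CPM in Tet2 vector and 552 and 752 CPM with Oridonin (difference 0.040). Next came Lrrc52 (0.11), Nuak1 (0.14), Hand2 (0.14) and Teddm2 (0.14). Hand2, a transcription factor of heart development, was at 72.8 CPM in WT and 27.5 to 29.1 CPM in the 4 Tet2 libraries. For Cdkn1c the closest were Acot8 (0.051), Pomp, Snrpg, Bola2 and Cracr2b, each with its lowest value in Tet2 vector replicate 1 and its highest in replicate 2. For Cdkn2d they were Tspan15 (0.038), Cox6b2, Cbx8, Sema6b and Apbb1, each highest in Oridonin replicate 1.

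The level of Cdkn1a relative to WT was then recomputed under other settings. Its log2 difference for Tet2 vector ran from -1.51 to -1.27 over 13 alternatives on unmixed values, with adjusted p from 0.0720 to 0.484 in limma or voom. For Oridonin it ran from -1.53 to -1.17, with adjusted p from 0.186 to 0.880. On the deposited values, in which each replicate carries 0.25 of the other, the fold is the same but the adjusted p in limma was 0.00732 and 0.0132. Direction was the same in each of these settings, which do not include a crossed replicate pairing chosen after the data were seen. All of them keep the single WT library, which lay above every Tet2 library. Leaving out a Tet2 library therefore could not turn the direction, and changes of filter or limma options return the same fold by construction.

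**Figure D4:**
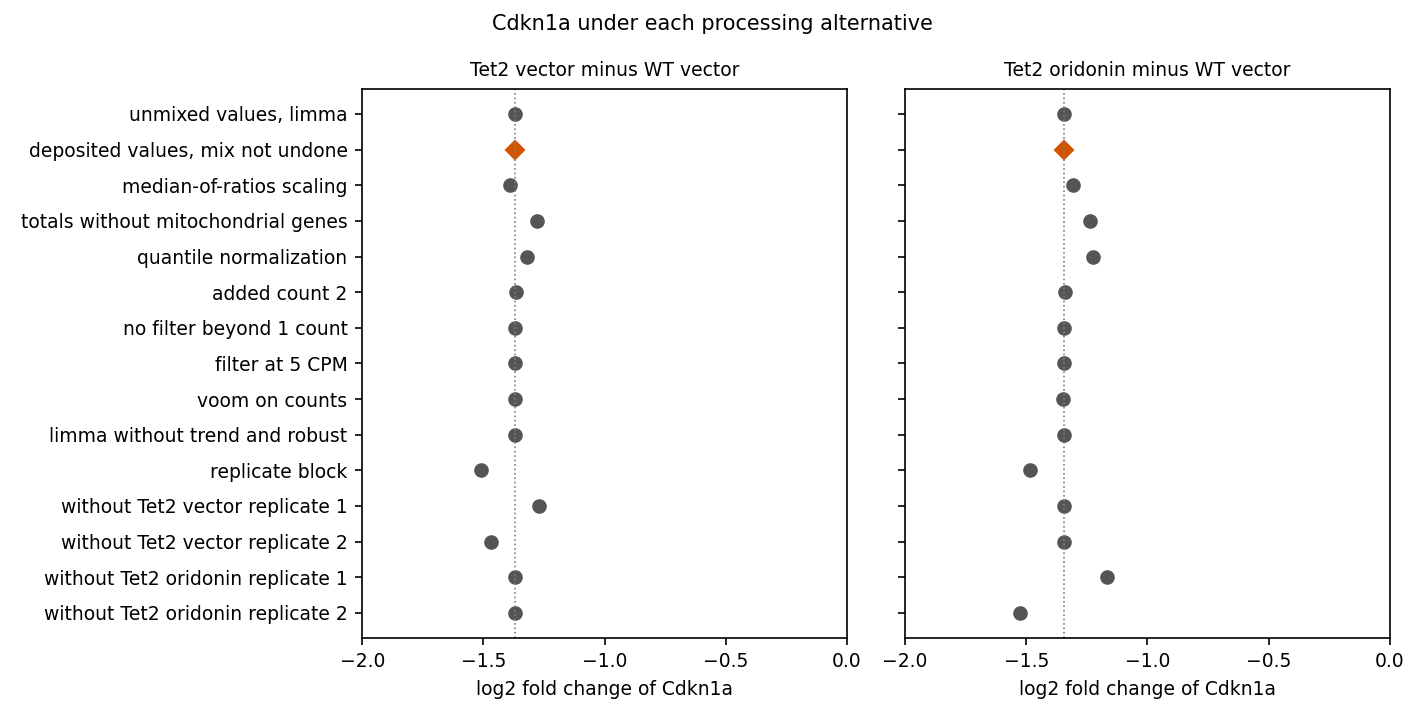
Log2 fold change of Cdkn1a against WT for Tet2 vector (left) and Oridonin (right) under each setting except a crossed replicate pairing, with orange diamonds where the adjusted p was under 0.05 and a dotted line at the reported value. The values stay between -1.53 and -1.17, and the diamonds stand at the deposited, mixed values.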

How the data were processed

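The deposited data are a single table with 17818 gene symbols as log2 values, its 5 columns matched to samples through the labels. Poly-A RNA was made into NEBNext Ultra libraries, per the labels' protocols, and the submitters' processing notes name mm10 as the build. The aligner, counter, annotation and strand setting were not stated in those notes or the labels. Worked out from the deposited values, they are log2 of CPM with 0.5 added to the count. In the Tet2 columns each value is 0.75 of its own library and 0.25 of the other replicate. Undoing this returned whole counts, within 0.01, for 99.92% to 99.94% of genes, against 9.06% to 10.4% as deposited. The WT column, whole for 33.5% of genes, was used as deposited, so its counts are approximate.

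Limma 3.58.1 (R 4.3.3; trend, robust) was fitted to the unmixed log2 values of all 5 libraries by group, for the 12734 genes that reached 1 CPM in 2 or more libraries, with Benjamini-Hochberg adjustment over all of them. Of the 10 genes, 8 were tested. The fit has 2 residual degrees of freedom, and WT is assumed to vary like the Tet2 groups. The labels do not say that replicates came from separate animals, so p-values measure the spread between these samples, which may be technical. Members and lists were chosen with earlier results of these data known. From each list the 2 tested genes with the smallest unadjusted p per comparison are candidates for naming, and likeness is given for the 3 tested genes that vary most. Marker genes of single cell types were named for the library that stands apart. The steps were tested on simulated counts. Gene positions are from GENCODE M21 (GRCm38), promoters from RefSeq (GRCm38.p6). Exact Poisson and binomial intervals (95%) cover counting error only.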

Additional observations from a re-analysis of the deposited data

How the results depend on the processing

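Of 344 fold changes of the 8 genes under alternatives, 304 kept their direction and side of the threshold, 2 gained a call (Cdkn1a against WT on deposited values) and 38 changed sign, all of them with a reported log2 of at most 0.26 in size. The 304 are no measure of stability, since many could not change. Changes of filter or limma options, deposited values and a left-out library of the third group return the same fold by construction. With none of the 8 called in the reported fit, keeping the side of the threshold meant staying uncalled. No gene of the 8 was called on unmixed values in the alternatives of scaling, filter, added count, voom, limma without trend, the replicate block or a left-out library. The cause of changed signs was not tested.

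On deposited, mixed values limma called 2312 genes for Tet2 vector against WT, 76 for Oridonin against vector and 996 for Oridonin against WT, with 1, 0 and 1 of the 8. The replicate numbers did not pair the samples (correlation of deviations -0.30), and a replicate block called 10, 9 and 6 genes, with 0 of the 8 in each. A crossed replicate pairing, chosen after the data were seen, called 432, 44 and 184 genes, with 1, 0 and 1 of the 8. Leaving out 1 library gave 2 to 127, 3 to 40 and 0 to 26 genes. The most came without Oridonin replicate 2 in each comparison. For Tet2 vector against WT the counts were 3 and 2 without vector replicates 1 and 2 and 72 and 127 without Oridonin replicates 1 and 2. For Oridonin against vector they were 5, 3, 13 and 40, and for Oridonin against WT 1, 0, 9 and 26, in the same order.

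Signs turned as follows. For Tet2 vector against WT, Cdkn1c became 0.063 and Ccng1 0.078 on totals without mitochondrial genes, and Ccng1 0.19 with quantile normalization and 0.047 with the replicate block. For Oridonin against vector, median-of-ratios scaling gave 0.023 for Cdkn1b, 0.055 for Trp53 and 0.033 for Ccng1, quantile normalization 0.012 for Cdkn1b and 0.076 for Trp53, and totals without mitochondrial genes 0.015 for Trp53. For Oridonin against WT, Cdkn2c, Cdkn2d and Ccng1 became 0.020, 0.015 and 0.00043 with median-of-ratios scaling, 0.091, 0.086 and 0.072 without mitochondrial genes, and 0.010, 0.035 and 0.14 with quantile normalization. The replicate block gave -0.16 for Cdkn1c, 0.030 for Cdkn2d and 0.021 for Ccng1.

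With 1 library left out, the log2 ranges that crossed 0 were, for Oridonin against vector, -0.16 to 0.20 (Cdkn1a), -0.12 to 0.042 (Cdkn1b), -0.40 to 0.60 (Cdkn1c), -0.047 to 0.56 (Cdkn2d), -0.12 to 0.11 (Trp53), -0.059 to 0.18 (Mdm2) and -0.31 to 0.26 (Ccng1). For Tet2 vector against WT they were -0.53 to 0.47 (Cdkn1c) and -0.30 to 0.27 (Ccng1), and for Oridonin against WT -0.11 to 0.069 (Cdkn2c), -0.33 to 0.28 (Cdkn2d) and -0.20 to 0.13 (Ccng1). Totals without mitochondrial genes moved the median of all genes for Oridonin against WT from -0.062 to 0.048. With 1 WT library and 2 residual degrees of freedom the intervals are wide, and for Cdkn2a and Cdkn2b the WT counts of 2 and 1 lie under the floor of 3.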
